A study of Mus musculus with 16 samples.

Results

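The question was whether nicotinamide riboside (NR) changed transcript levels in the cerebellum of Atm-/- mice as it did in that of wild-type (WT) mice. For each probe, the NR minus vehicle (veh) difference in WT was subtracted from the NR minus veh difference in Atm-/-, so that a positive interaction means a higher, or less negative, NR effect in Atm-/-. All 16 of 16 arrays in the series enter this contrast, with 4 in each combination of genotype (WT or Atm-/-) and treatment (NR or veh). The mice came from the strain B6;129S4-Atmtm1Bal/J and were Atm-/- homozygotes or their WT littermates, all labelled male. Treated mice drank water holding 3.5 mg/ml (12 mM) NR for 2 months, starting at 6 weeks of age, the others drank water without it, and age was 3.5 months on every label. Each array held RNA from the cerebellar cortex of 1 mouse.

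NR is a form of vitamin B3 that nicotinamide riboside kinases and the NMNAT enzymes convert to NAD+. NAD+ carries electrons from the TCA cycle to respiratory complex I and is consumed by sirtuins and poly(ADP-ribose) polymerases. ATM is a kinase that responds to DNA double-strand breaks, and people who lack it develop ataxia-telangiectasia, in which the cerebellum degenerates.

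Of 56605 probes, 37253 (65.8%) were kept, and these included a probe for 16737 named genes. A gene is given by its brightest probe, and levels are quantile normalized log2 signals, so that a difference of 1 is a doubling of signal. The slides held 1 genotype each, and on each slide the veh arrays lay in row 1 and the NR arrays in row 2. An offset of a whole slide therefore drops out of the interaction, while row and NR cannot be told apart in a response that both genotypes share. Against the label of male, Y-linked genes gave no signal on Atm-/- veh 3, on Atm-/- NR 4 or on replicates 1 and 4 of WT NR. The brightest Atm probe overlapped between the genotypes, while another Atm probe lay between 7.72 and 8.08 on the 8 Atm-/- arrays and between 8.52 and 9.03 on the 8 WT arrays. The brightest Atm probe had an interaction of 0.23 ± 0.16 (SE, limma adjusted p = 0.84).

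The NR responses of the genotypes had the same sign for 69.7% of kept probes and for 3199 of the 3366 probes called in Atm-/-. Their measured size was larger in Atm-/-, and for no probe did the difference pass the test. No probe was called for the interaction at a Benjamini-Hochberg adjusted p under 0.05 by limma (0 of 37253, 0%, smallest adjusted p = 0.839). At an unadjusted p under 0.05 there were 1962 probes (5.27%), close to the share that the threshold itself allows, of which 1080 (2.9%) were positive and 882 (2.37%) negative. The methods' t-test gave 2273 probes at that threshold and 0 after adjustment. NR effects were called for 3366 probes (9.04%) in Atm-/-, 1697 (4.56%) higher and 1669 (4.48%) lower with NR. In WT 0 probes (0%) were called by limma, with 2838 (7.62%) at an unadjusted p under 0.05 (3.71% higher and 3.91% lower), and the methods' t-test also gave 0 after adjustment. That an effect passed in Atm-/- and not in WT does not show that the effects differ, and the test of that difference is the interaction.

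The average of both NR effects asks whether their mean differed from 0, and a large effect in 1 genotype alone can give a call. The kinase Nlk was called in it (limma adjusted p = 0.0307) with NR effects of -0.003 in WT and 0.44 in Atm-/-. A call in the average is therefore not by itself a shared response. The average was called for 4035 probes (10.8%), 2020 (5.42%) higher and 2015 (5.41%) lower with NR. At an unadjusted p under 0.05 the shares were 27.4% for the average (13.3% higher and 14% lower) and 27.3% for Atm-/- (13.2% higher and 14% lower). Among the 4035 probes called in the average, the median size of the NR effect was 0.43 in Atm-/- and 0.22 in WT. The median ratio of WT to Atm-/- was 0.520, and the effect was larger in Atm-/- for 89.5%. The 95% interval of the interaction held 0 for 3285 of the 4035 and lay within 1 of 0 for 3487 (86.4%, against 72.0% of all kept probes). It left out 0 for 750 of the 4035, a larger share than the 1962 of all 37253 kept probes (5.27%). The spread of a probe enters both tests, so choosing probes called in the average favours narrow intervals. The part of this choice in both comparisons was not tested. Over all kept probes that interval reached a median of 0.48 to each side. The root mean square NR effect was 0.42 in Atm-/- and 0.29 in WT, and that of the interaction was 0.40. The spread between arrays alone was expected to give 0.28, 0.28 and 0.39. WT and the interaction were close to that expectation, so sizes beyond the spread are not compared. In simulated data with 200 changed probes, the interaction test recovered 0 at a difference of 0.5, 87 at 1, 120 at 1.5 and 164 at 2. The simulated noise was normal and independent between probes, while whole gene lists moved together on some of the real arrays. Recovery also depends on the number of changed probes, so these counts are not the power in the real data.

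Across all kept probes, the NR effects of the genotypes had a Pearson r of 0.404 and a Spearman rho of 0.469, and 69.7% had the same sign. These are descriptions across probes, which are not independent replicates, but the genotypes share no array in them. Leaving out 1 array at a time gave an r between 0.226 (without WT veh 3) and 0.565 (without WT NR 1). The r rose with brightness, from 0.341 in the dimmest quartile of probes to 0.422, 0.514 and 0.601 in the brightest. Of the 3366 probes called in Atm-/-, which were chosen for their size in that genotype, 3199 had the same sign in WT, with a median size of 0.44 in Atm-/- and 0.17 in WT.

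**Figure D1:**
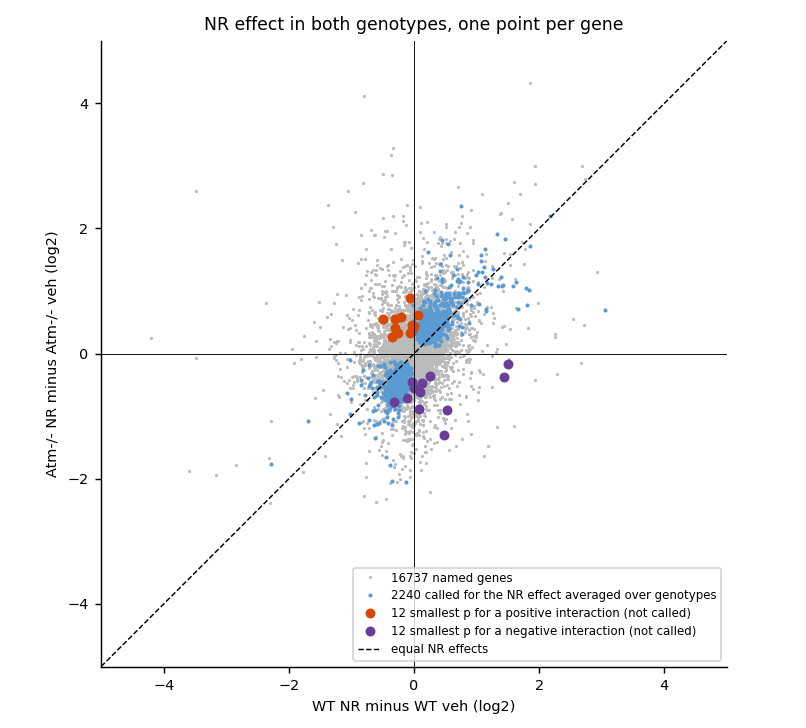
NR minus veh difference (log2) in WT on the horizontal axis and in Atm-/- on the vertical axis, 1 point for each of 16737 named genes at its brightest probe, with the 2240 genes called in the average and the genes with the smallest interaction p marked. Of the 2240 genes called in the average, 2235 lie in the quadrants of equal sign, which the choice by their average nearly fixes. Most lie on the steeper side of the diagonal, where the effect was larger in Atm-/-.

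A measure over arrays was added after the data were seen. Each Atm-/- array was scored along the WT response, with the Atm-/- veh mean at 0 and a step of 100% being the whole measured WT difference. The Atm-/- NR arrays lay 58.8% further along it than the Atm-/- veh arrays (SD 12.1 for veh and 15.8 for NR, n = 4 each, exact two-sided permutation p = 0.0286, the smallest that 4 arrays against 4 allow). Over the brightest quartile of probes the step was 106.8% (exact permutation p = 0.0286). The WT NR arrays lay 27.7% further along the Atm-/- line than the WT veh arrays (SD 22.4 for veh and 27.7 for NR, n = 4 each, exact permutation p = 0.2), which was not larger than the spread. The WT difference had a root mean square of 0.29, close to the 0.28 expected from the spread between arrays. A percent of it is therefore not a share of the WT response to NR. Steps along the WT and Atm-/- lines cannot be compared in size.

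All 4 NR arrays lay on the same side of all 4 veh arrays for 20.2% of probes in Atm-/- and 4.09% in WT. For 645 probes (1.73%) this held in both genotypes and in the same direction, 298 higher and 347 lower, and 392 were brightest probes of named genes. Only 2 probes (0.00537%) were separated in opposite directions, and 1 of them had a gene name, 4930479D17Rik. Leaving out 1 array gave 0 to 2 interaction calls, and the 12 arrays with Y-linked signal gave 5. Those of the called probes that were kept over all 16 arrays had no gene name, and the names of the others were not looked up. Without WT veh 4 and Atm-/- veh 3 the counts of separated probes were 1552 and 25. Fewer arrays separate more easily, and the part of this in the rise was not tested.

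Technical measures moved with these responses. Between 39134 and 41905 probes were well above background on the Atm-/- veh arrays and between 34945 and 37817 on the Atm-/- NR arrays, with no overlap (mean difference -4858, exact permutation p = 0.0286). In WT the difference was -1274 (exact permutation p = 0.371), and the difference between the genotypes was -3585 (exact permutation p = 0.142). With this count as a covariate, 0 probes were called in Atm-/- and 0 in the average by limma, with 5899 (15.8%) and 6472 (17.4%) at an unadjusted p under 0.05. Over all kept probes the NR effects of the genotypes had an r of 0.442 with the covariate, and 71.3% had the same sign. Other measures moved with NR in both genotypes. Outlier spots numbered 99 to 174 on WT veh arrays and 189 to 278 on WT NR arrays, and 65 to 123 and 220 to 270 in Atm-/- (exact permutation p = 0.0286 in each genotype). The spike-in spots were brighter on NR arrays by 0.41 in WT and 0.52 in Atm-/- (log2, exact permutation p = 0.0286 in each). The part of these measures in the NR effects was not tested. The calls in Atm-/- also depended on single arrays and fell to 845 without Atm-/- veh 1 and 938 without Atm-/- NR 3, and those of the average to 2255 and 2432.

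Genes were then taken by function. Of 16737 named genes, 2240 (13.4%) were called in the average, 1246 (7.44%) higher and 994 (5.94%) lower, and 2235 of them had the same sign in both genotypes, which the choice by their average nearly fixes. In Atm-/- 1920 (11.5%) were called, 6.67% higher and 4.8% lower, and in WT and for the interaction 0. Over all named genes 5.96% had an unadjusted interaction p under 0.05, and the median interaction was 0.03, with a median NR effect of 0.04 in Atm-/- and -0.01 in WT. Each gene group below is read against these shares and medians.

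Genes with the smallest p for the average, chosen after their values were seen, show a response of the same direction in both genotypes at the level of single arrays. Otud6b, a deubiquitinase, was at 11.46, 11.63, 11.72 and 11.59 in WT veh and at 11.84, 12.10, 12.00 and 11.92 in WT NR. In Atm-/- it was at 11.36, 11.53, 11.39 and 11.38 in veh and at 12.04, 12.00, 12.16 and 12.17 in NR. Every NR array lay above every veh array in both genotypes, with NR effects of 0.36 in WT and 0.68 in Atm-/- and an average of 0.52 ± 0.06 (SE, limma adjusted p = 0.00167). Its other probe gave an average of 0.03.

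Spock3, an extracellular proteoglycan, was at 12.43, 12.29, 12.42 and 12.45 in WT veh and at 12.67, 12.75, 12.84 and 12.84 in WT NR. Its levels were 12.17, 12.21, 12.13 and 12.29 in Atm-/- veh and 12.72, 12.70, 12.61 and 12.67 in Atm-/- NR. Its NR effects of 0.38 and 0.47 were close in size, and the interaction of 0.10 had a 95% interval from -0.10 to 0.30. Ncoa4, the receptor that delivers ferritin for breakdown, rose by 0.28 in WT and 0.53 in Atm-/- (average 0.41, adjusted p = 0.00271 by limma), while its other probe gave 0.06 and 0.14.

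Among the falls, Galnt17, a glycosyltransferase, was at 11.47, 11.23, 11.08 and 11.22 in WT veh and at 11.06, 10.83, 10.95 and 10.90 in WT NR. It was at 11.72, 11.60, 11.56 and 11.58 in Atm-/- veh and at 10.95, 10.94, 10.91 and 10.93 in Atm-/- NR. The groups did not overlap in either genotype, and the effect was -0.32 in WT and -0.68 in Atm-/- (average -0.50 ± 0.06 SE, limma adjusted p = 0.0022). The interaction of Galnt17 was -0.37 (95% interval -0.62 to -0.12) and was not called. Gps2, a subunit of a nuclear corepressor complex, had effects of -0.42 in WT and -0.72 in Atm-/- (adjusted p = 0.0022 by limma for the average). Its interaction was -0.30 (95% interval -0.59 to -0.01) and was not called. The noncoding gene 2610035D17Rik had nearly equal effects of -0.58 and -0.62, with an interaction of -0.04 (95% interval -0.35 to 0.28). These 6 genes kept their calls without each single array and lost them with the covariate above.

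**Figure D2:**
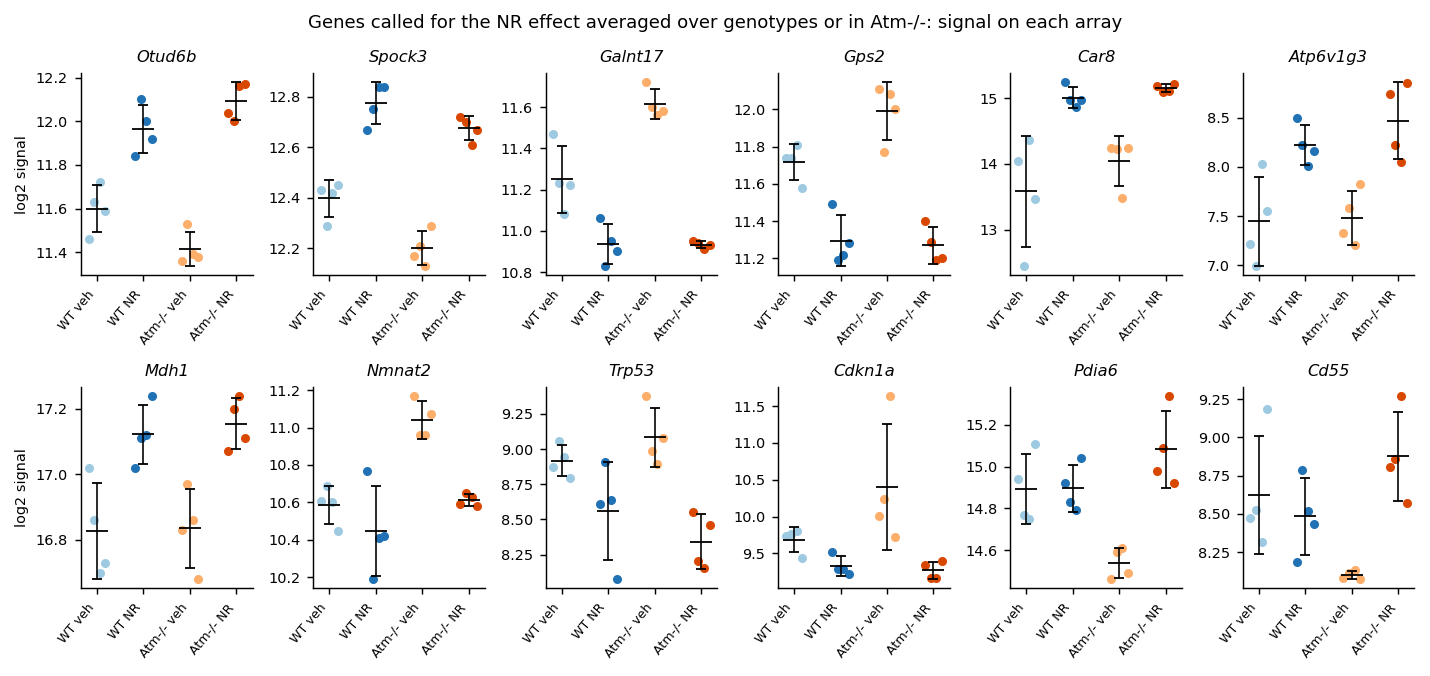
Quantile normalized log2 signal of 12 genes on each of the 16 arrays, by group, with points for arrays and bars for group means. Otud6b, Spock3, Galnt17, Gps2 and Car8 shifted in the same direction in both genotypes. Pdia6 and Cd55 had NR effects of 0.55 and 0.78 in Atm-/- and 0.00 and -0.14 in WT with no interaction called, and Cdkn1a shows the high Atm-/- veh 3 array at 11.64.

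The largest averaged changes by the naming rule were mostly of dim probes and varied widely. For Pax7, a transcription factor of developing neural tissue, 1 veh and 4 NR arrays in WT and 2 veh and 3 NR arrays in Atm-/- gave a signal well above background. Ern2, an endoplasmic reticulum stress sensor, rose by 1.45 in WT and 1.83 in Atm-/- (limma adjusted p = 0.0123). Cldn3, a tight junction protein, was well above background on all 4 veh arrays and 2 NR arrays of each genotype, so that the size of its fall is set partly by background (average adjusted p = 0.0106 by limma). Syt10, a synaptotagmin and the brightest of them, was at 10.50, 10.82, 11.65 and 12.25 in WT veh and at 9.92, 8.64, 10.18 and 9.69 in WT NR. In Atm-/- it was at 13.03, 11.77, 12.41 and 12.71 in veh and at 11.83, 10.17, 11.51 and 12.09 in NR. Its groups were apart in WT and overlapped in Atm-/-, with effects of -1.70 and -1.08, and its other probe gave an average of 0.21. The other genes named by this rule were 4933436H12Rik, En1, Ankle1 and 9630013A20Rik, which rose, and Frem3, Gm7904, Mettl21c and Lpp, which fell.

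Genes of mitochondrial respiration were called at a share near that of all genes in either direction, and all of those called were higher with NR. Of 36 kept genes of respiratory complex I, which takes electrons from NADH, 6 were called in the average and all 6 were higher with NR (16.7%). Of all genes, 13.4% were called in either direction and 7.44% were called higher. The median NR effect of the list was 0.06 in both genotypes. The mean standing of the list overlapped between veh and NR arrays in WT. The 6 were Ndufa1, Ndufa8, Ndufb3, Ndufb4, Ndufb5 and Ndufb6. Ndufb6 rose by 0.19 in WT and 0.36 in Atm-/- (limma adjusted p = 0.00774), and Ndufb5 by 0.19 in both (adjusted p = 0.0256 by limma). Ndufa1 and Ndufb4 lost their calls without any of 10 arrays and Ndufb5 without any of 3. The median interaction of the list was 0.01 (-0.05 with the covariate), and 20 of the 36 genes were positive. Complexes II to V had median NR effects of 0.09 in WT and 0.13 in Atm-/-, and 6 of 37 genes (16.2%) were called, all higher, among them Uqcrfs1, Cox6c and the ATP synthase genes Atp5c1, Atp5g3 and Atp5h, of which Cox6c and Atp5h lost their calls without any of 11 and 14 arrays. Fewer of these genes were called without single arrays, with 3 called in complexes II to V and 4 in complex I without Atm-/- veh 3.

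The TCA cycle and pyruvate dehydrogenase list had the largest share of called genes among all lists, 9 of 23 (39.1%), with 7 higher and 2 lower. The 7 that rose were Dlst, Sucla2, Fh1, Mdh1, Mdh2, Pdhb and Pdhx, and the 2 that fell were Pdk2 and Pdk3, kinases that switch pyruvate dehydrogenase off. Pdhb, a subunit of pyruvate dehydrogenase, was at 15.81, 15.73, 15.70 and 15.57 in WT veh and at 15.96, 15.99, 15.93 and 16.06 in WT NR. It was at 15.52, 15.68, 15.53 and 15.58 in Atm-/- veh and at 15.92, 16.10, 16.09 and 16.11 in Atm-/- NR. All NR arrays lay above all veh arrays of their genotype, and the interaction was 0.19 (95% interval -0.03 to 0.41). Mdh1, the cytosolic malate dehydrogenase, rose by 0.29 in WT and 0.32 in Atm-/- (average 0.31 ± 0.06 SE, limma adjusted p = 0.0113). Pdk2 fell by 0.27 in WT and by 0.46 in Atm-/- (adjusted p = 0.011 by limma). Mdh2, Dlst and Pdk3 lost their calls without any of 10, 3 and 13 arrays. The medians of the list were nonetheless near 0 (0.02 in WT and 0.03 in Atm-/-), since genes moved in both directions.

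Of 75 mitochondrial ribosome genes 10 were called higher and 2 lower in the average, and 56 had a positive interaction, with medians of 0.03 in WT and 0.07 in Atm-/-. The interaction median was 0.07 and went to 0.02 on the arrays with Y-linked signal. Among 35 proteasome genes 8 were called higher and 3 lower (31.4%). Psmd6, a regulatory subunit, had effects of 0.24 in WT and 0.47 in Atm-/- (average adjusted p = 0.00656 by limma), while Psmb7 and Psmc5 had -0.12 and -0.10 in WT and -0.39 and -0.40 in Atm-/-, Psmb7 losing its call without Atm-/- veh 1 or Atm-/- NR 3. Of 76 cytosolic ribosome genes 8 were called higher and 2 lower (13.2%), no larger a share than over all genes. Their interaction was positive for 59 of the 76, with a median of 0.05 against 0.03 over all named genes. Chaperones gave 6 higher and 1 lower of 38, with Cct6a, a subunit of the cytosolic chaperonin, at 0.24 and 0.50 (adjusted p = 0.00442 by limma).

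Of 19 kept genes that make NAD+, 2 (10.5%) were called in the average, in opposite directions, a share near that of all genes. Nmnat2, an NMNAT enzyme that protects axons, was at 10.61, 10.69, 10.60 and 10.45 in WT veh and at 10.77, 10.19, 10.41 and 10.42 in WT NR. In Atm-/- it was at 11.17, 10.96, 10.96 and 11.07 in veh and at 10.59, 10.65, 10.63 and 10.58 in NR. The Atm-/- groups were apart and the WT groups overlapped, with effects of -0.14 in WT and -0.43 in Atm-/- and an interaction of -0.29 (95% interval -0.60 to 0.03). Slc12a8, a reported carrier of nicotinamide mononucleotide, had effects of 0.38 in WT and 0.24 in Atm-/-. These calls were near the threshold, and Nmnat2 lost its call without any of 5 arrays (adjusted p up to 0.061 by limma) and Slc12a8 without any of 4 (up to 0.0624).

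Among 27 NAD+-consuming enzymes 1 was called higher and 4 lower (18.5%). Sirt6, a nuclear sirtuin, had effects of -0.20 in WT and -0.47 in Atm-/- (adjusted p = 0.00884 by limma). The polymerase genes Parp3, Parp12 and Tnks also fell, with effects of -0.20, -0.45 and -0.15 in WT and -0.41, -0.56 and -0.53 in Atm-/-. Sirt3, the mitochondrial sirtuin, had effects of 0.21 and 0.42 and lost its call without any of 9 arrays (adjusted p up to 0.0659 by limma). The kinase Nmrk1, which takes NR into the pathway, had effects of -0.06 in WT and -0.44 in Atm-/- and was not called.

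In the p53 and senescence list 2 of 33 genes were called higher and 2 lower. Trp53, which encodes p53, was at 8.88, 9.06, 8.94 and 8.80 in WT veh and at 8.61, 8.91, 8.64 and 8.08 in WT NR. It was at 9.38, 8.99, 8.89 and 9.08 in Atm-/- veh and at 8.55, 8.21, 8.15 and 8.46 in Atm-/- NR. The WT groups overlapped and the Atm-/- groups did not, with effects of -0.36 and -0.74 (average -0.55 ± 0.11 SE, limma adjusted p = 0.0113) and an interaction of -0.38 (95% interval -0.86 to 0.10). Cdkn1a, the cell cycle inhibitor p21, had -0.36 in WT and -1.13 in Atm-/-, where Atm-/- veh 3 stood at 11.64 and the other 3 veh arrays between 9.72 and 10.24. Its average lost its call without any of 9 arrays (adjusted p up to 0.0671 by limma). Of 46 DNA damage genes 4 were called higher and 5 lower (19.6%), with H2ax at 0.24 and 0.43 (adjusted p = 0.00466 by limma) and Xrcc1, a scaffold of single-strand break repair, at -0.24 and -0.23. The call of Xrcc1 was lost without Atm-/- veh 4, Atm-/- NR 3 or Atm-/- NR 4 (adjusted p up to 0.0587 by limma).

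Among genes of synaptic vesicle release 2 of 51 were called higher and 4 lower (11.8%), among potassium channels 4 and 1 of 42 (11.9%) and among sodium and calcium channels 2 and 1 of 29 (10.3%), shares below that of all genes. Slc17a7, the vesicular glutamate transporter of granule cells, was at 12.24, 12.15, 12.11 and 12.29 in WT veh and at 12.03, 11.52, 11.49 and 11.83 in WT NR. It was at 12.68, 12.37, 12.06 and 12.29 in Atm-/- veh and at 11.90, 11.76, 11.75 and 11.82 in Atm-/- NR. NR arrays lay below veh arrays in both genotypes, and the effects of -0.48 and -0.54 gave an interaction of -0.06 (95% interval -0.46 to 0.35). The vesicle proteins Syp and Vamp2 also fell alike (-0.33 and -0.21 in WT, -0.42 and -0.43 in Atm-/-). Scn1a, a sodium channel, had 0.37 in WT and 0.25 in Atm-/-, and the potassium channel Kcna1 0.33 and 0.40 (adjusted p = 0.0154 and 0.0128 by limma). In bulk tissue, fewer cells of a type and less RNA per cell cannot be told apart.

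Car8, a Purkinje cell protein that binds the inositol trisphosphate receptor, had the largest rise among the list genes that kept their call without each single array. It was at 14.05, 12.45, 14.36 and 13.47 in WT veh and at 15.24, 14.97, 14.86 and 14.97 in WT NR. In Atm-/- it was at 14.24, 14.23, 13.48 and 14.24 in veh and at 15.19, 15.09, 15.11 and 15.21 in NR. All 8 NR arrays lay above all 8 veh arrays, the effects were 1.43 and 1.10 (average 1.26 ± 0.22 SE, limma adjusted p = 0.00656), and the interaction was -0.32 with a wide 95% interval from -1.27 to 0.62. The other Purkinje cell markers did not follow it, since 2 of 30 were called and the median NR effect was 0.03 in WT and 0.02 in Atm-/- (-0.09 in WT without WT veh 4). The other called gene, Foxp2, was near 9 on WT NR 2 and 3 and Atm-/- NR 2 and 3 (8.92, 8.95, 9.12 and 9.28) and between 6.33 and 7.45 on the other 12 arrays, and lost its call without any of 10 arrays.

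The markers of the deep cerebellar nuclei, which lie below the cortex, varied widely between arrays of a group. The mean of their standing on each array, in log2 from the mean of all arrays, was 0.77, 0.88 and 0.68 on WT NR 2, 3 and 4 and 0.70 and 0.58 on Atm-/- NR 2 and 3. It was also 0.37 and 0.98 on WT veh 1 and 4 and between -0.91 and -0.06 on the other 9 arrays. The group means went from -0.10 in veh to 0.43 in NR in WT and from -0.46 to 0.13 in Atm-/-, and the groups overlapped in both. The 14 markers had a median NR effect of 0.24 in WT and 0.08 in Atm-/-, 0 were called in the average by limma, the median interaction was 0.00 (-0.25 without WT veh 4), and their part in the NR effects of other genes was not tested.

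Among the ion-pumping ATPases 3 of 37 genes were called higher and 6 lower (24.3%). The subunits of the vacuolar proton pump Atp6v0a1, Atp6v0b, Atp6v0c and Atp6v0d1 all fell, by 0.09 to 0.23 in WT and by 0.24 to 0.49 in Atm-/-, though the mean over all probes of Atp6v0a1 gave 0.12 and its call was lost without any of 11 arrays. Another subunit, Atp6v1g3, rose in both genotypes. It was at 7.22, 6.996, 8.03 and 7.55 in WT veh and at 8.49, 8.22, 8.01 and 8.16 in WT NR. It was at 7.33, 7.58, 7.21 and 7.83 in Atm-/- veh and at 8.74, 8.22, 8.05 and 8.85 in Atm-/- NR. The groups overlapped by a single array in WT and not in Atm-/-, and the effects were 0.77 and 0.98 (adjusted p = 0.00809 by limma). Adgrg3, an adhesion receptor, had effects of 0.91 and 0.78, with WT veh 3 at 10.96 inside the range of the WT NR arrays, and its call was lost without any of 4 arrays (adjusted p up to 0.0579 by limma).

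**Figure D3:**
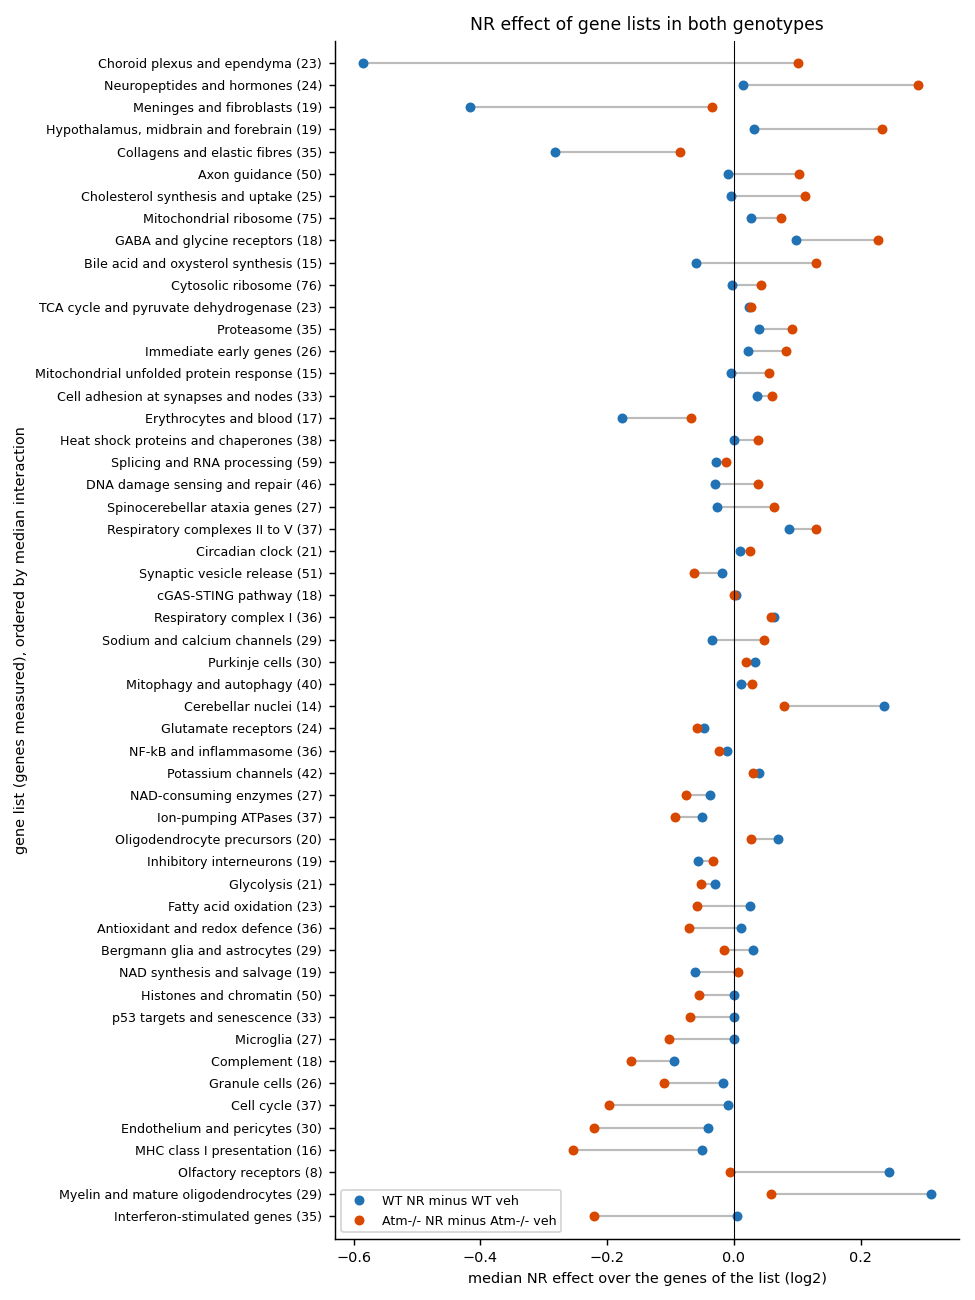
Median NR minus veh difference (log2) over the kept genes of each gene list, with WT and Atm-/- drawn as separate points on each line. Most lists lie near 0 in both genotypes, while the choroid plexus and meninges lists are low in WT alone, myelin is high in WT alone and interferon-stimulated genes are low in Atm-/- alone.

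The genes with the smallest interaction p were named although none was called (limma adjusted p = 0.839 for each). The smallest p was that of 4930479D17Rik, a noncoding gene that was well above background on all 16 arrays. It was at 6.25, 6.25, 6.201 and 6.35 in WT veh and at 5.99, 5.86, 6.13 and 5.84 in WT NR. It was at 6.04, 6.05, 5.91 and 5.83 in Atm-/- veh and at 6.21, 6.51, 6.46 and 6.29 in Atm-/- NR. NR arrays were lower than every veh array in WT and higher than every veh array in Atm-/-, with an interaction of 0.72 ± 0.13 (SE, limma adjusted p = 0.839, unadjusted p = 6.18e-05). This is the only named gene that was separated in opposite directions.

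Positive interactions came in 2 forms. In the first, NR effects were negative in WT and positive in Atm-/-. Cenpk, a kinetochore protein, had -0.35 and 0.27 (its other probe gave an interaction of 0.50), Cep44, a centrosomal protein, -0.26 and 0.34, and Fam160a1 -0.30 and 0.55. Slc44a5, a choline transporter-like protein, was at 9.60, 9.88, 9.96 and 10.41 in WT veh and at 9.27, 9.82, 9.45 and 9.30 in WT NR. It was at 8.66, 9.01, 9.28 and 9.01 in Atm-/- veh and at 9.41, 9.69, 9.77 and 9.27 in Atm-/- NR. The Atm-/- veh mean was the lowest of the 4 groups, and its interaction of 1.05 had a 95% interval from 0.49 to 1.61.

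In the other form, the NR effect in WT was near 0. B3galnt1, a glycosyltransferase, was at 12.70, 12.73, 12.62 and 12.73 in WT veh and at 12.72, 12.60, 12.61 and 12.76 in WT NR. It was at 12.32, 12.50, 12.26 and 12.25 in Atm-/- veh and at 12.73, 12.84, 12.94 and 12.64 in Atm-/- NR. The Atm-/- veh arrays lay below all others, and the Atm-/- NR arrays overlapped the WT arrays. The same form was seen for Tmem107, a protein of the ciliary transition zone (0.06 in WT and 0.61 in Atm-/-), Dcaf6 (-0.04 and 0.38), Sumf2 (-0.07 and 0.33) and the kinase Nlk (0.00 and 0.44, with its other probes at 0.34 and 0.49 for the interaction). Ccdc112 had -0.21 and 0.59, but its other probe gave an interaction of 0.00. Sohlh1 was dim, and was well above background on 3 veh and 2 NR arrays in WT and on 4 and 1 in Atm-/-.

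Among the negative interactions, Igf1r, the receptor of insulin-like growth factors, fell in both genotypes and by more in Atm-/-. It was at 10.44, 10.44, 10.44 and 10.55 in WT veh and at 10.32, 10.08, 10.02 and 10.16 in WT NR. It was at 10.68, 10.56, 10.60 and 10.49 in Atm-/- veh and at 9.91, 9.82, 9.70 and 9.84 in Atm-/- NR. The groups were apart in both genotypes, with effects of -0.32 and -0.77, an interaction of -0.45 (95% interval -0.68 to -0.21) and another probe at -0.58. Kcna2, an axonal potassium channel, was at 11.67, 11.25, 11.49 and 11.32 in WT veh and at 11.76, 11.37, 11.33 and 11.63 in WT NR. It was at 12.10, 11.64, 11.64 and 11.82 in Atm-/- veh and at 11.14, 11.22, 11.19 and 11.17 in Atm-/- NR. Its effects were 0.09 in WT, where the groups overlapped, and -0.62 in Atm-/-, where they did not.

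Daam2, a formin of the Wnt pathway, had effects of 0.00 in WT and -0.56 in Atm-/-, and its other probes gave interactions of -0.11 and -0.16. Atcay, the caytaxin gene mutated in a human ataxia, had 0.26 and -0.36, and its other probe gave an interaction of -0.09. Xrn1, a cytoplasmic exoribonuclease, had -0.12 and -0.70, and its other probe gave 0.38. Copg2, a subunit of the COPI coat, had 0.13 and -0.47, and its other probe gave -0.01. Gm5069 had -0.03 and -0.45. The remaining genes were dim in Atm-/- NR, where 4930474G06Rik, A630001G21Rik, Vmn2r112, 1700091H14Rik and Doxl1 were well above background on 1, 0, 0, 3 and 1 of 4 arrays. For 1700091H14Rik and Doxl1 the larger effect was in WT, at 1.443 and 1.501, against -0.3697 and -0.1728 in Atm-/-. Both were well above background on all 4 WT NR arrays. 4930474G06Rik, A630001G21Rik and Vmn2r112 had larger effects in Atm-/- (-1.299, -0.9035 and -0.8889) than in WT (0.4798, 0.5304 and 0.08589).

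**Figure D4:**
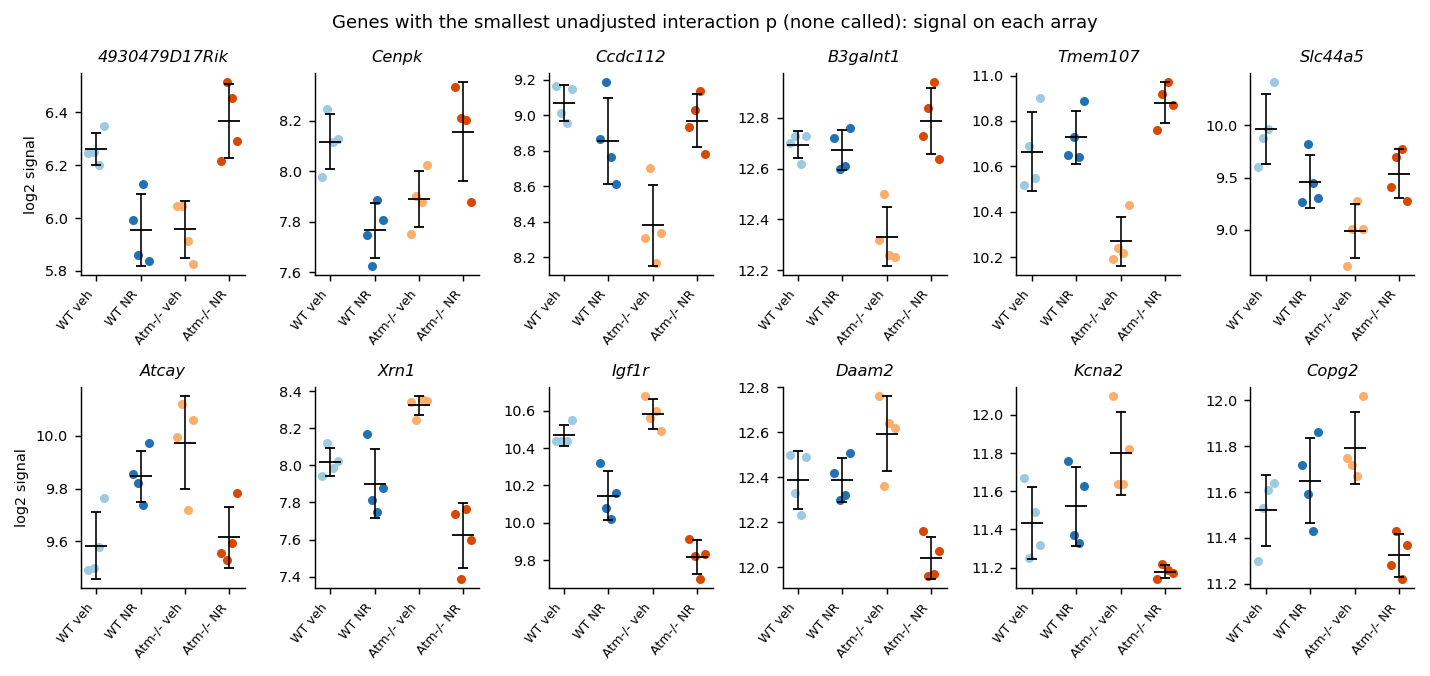
Quantile normalized log2 signal of 12 genes with small interaction p on each of the 16 arrays, by group, with points for arrays and bars for group means. 4930479D17Rik moved in opposite directions, B3galnt1 and Tmem107 had NR effects of 0.45 and 0.61 in Atm-/- and -0.03 and 0.06 in WT, and Igf1r fell in both genotypes, although no interaction was called.

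List genes that were called in Atm-/- with WT near 0 were of the same kind. Pdia6, a disulfide isomerase of the endoplasmic reticulum, was at 14.94, 14.77, 14.75 and 15.11 in WT veh and at 14.92, 14.83, 14.79 and 15.04 in WT NR. It was at 14.46, 14.59, 14.61 and 14.49 in Atm-/- veh and at 14.98, 15.09, 15.34 and 14.92 in Atm-/- NR. The Atm-/- veh arrays lay below all the others, and the interaction was 0.54 (limma adjusted p = 0.839, unadjusted p = 0.00256). Cd55, which limits complement, had effects of -0.14 in WT and 0.78 in Atm-/- (unadjusted p = 0.00346 by limma for the interaction). The axonal cell adhesion genes Nfasc and Cntn2 had -0.02 and 0.04 in WT and -0.44 and -0.38 in Atm-/-. Neurod6, a neuronal transcription factor listed as a marker of forebrain, went the other way in size, with -0.81 in WT and -0.26 in Atm-/-.

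Some cell type and immune lists had large median interactions that were much smaller, or of the other sign, without a single array. The median interaction of 23 markers of choroid plexus and ependyma was 0.89, with NR effects of -0.58 in WT and 0.10 in Atm-/-, and all 23 were lower with NR in WT. The mean standing of the list was 2.82 on WT veh 4 and between -1.19 and 0.64 on the other 15 arrays. Without WT veh 4 the median interaction was 0.19 and the WT effect -0.11. Without both WT veh 4 and Atm-/- veh 3 the median interaction was 0.396. Neuropeptides (0.43), forebrain markers (0.37) and collagens (0.19) had median interactions of 0.03, 0.07 and 0.09 without WT veh 4. For the meninges list the interaction was 0.42, 0.34 without WT veh 4 and 0.15 without Atm-/- NR 3. It was 0.415 without both WT veh 4 and Atm-/- veh 3. Over all arrays 18 of 19 meninges genes were lower with NR in WT, with a WT median of -0.42. No gene of the choroid plexus or meninges lists was called in the average, and their part in other results was not tested.

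Interferon-stimulated genes had NR effects of 0.00 in WT and -0.22 in Atm-/- and a median interaction of -0.28, with 29 of 35 genes negative. The mean standing of the list was 1.22 on Atm-/- veh 3 and between -0.28 and -0.11 on the other Atm-/- veh arrays. Without Atm-/- veh 3 the median interaction was 0.12, with 25 of 35 genes positive. Isg15, an antiviral modifier, had effects of 0.18 and -0.48 and was not called. Ly6e was the list's called gene and fell in both genotypes, by 0.28 in WT and by 0.60 in Atm-/- (adjusted p = 0.0113 by limma). The MHC class I list had a median interaction of -0.16, of -0.08 without Atm-/- veh 3 and of 0.00 on the arrays with Y-linked signal.

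The myelin list had a median interaction that was negative without each single array, though it was far smaller without 1 of them. Of 29 kept markers of mature oligodendrocytes 29 were higher with NR in WT (median 0.31) and 17 in Atm-/- (median 0.06), and 26 had a negative interaction, with a median of -0.26. The mean standing of the list was 0.25, -0.05, -0.48 and 0.10 on the WT veh arrays and 0.06, 0.13, 0.20 and 0.64 on the WT NR arrays. It was -0.04, -0.12, -0.18 and -0.15 on the Atm-/- veh arrays and -0.06, 0.01, -0.28 and -0.02 on the Atm-/- NR arrays. The groups overlapped in both genotypes. Without single arrays the median interaction lay between -0.36 (without WT veh 1) and -0.10 (without WT veh 3), and it was -0.21 on the arrays with Y-linked signal and -0.50 with the covariate. Mbp and Mog, structural proteins of myelin, had 0.57 and 0.35 in WT and 0.22 and -0.03 in Atm-/-, with unadjusted interaction p of 0.421 and 0.206 by limma. The genes of the list that were called in the average were those whose effects were alike: Ndrg1 (0.44 and 0.44), Qdpr (0.28 and 0.38) and Tmem125 (0.49 and 0.45). Qdpr and Tmem125 lost their calls without any of 10 and 12 arrays (adjusted p up to 0.069 and 0.0818 by limma).

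**Figure D5:**
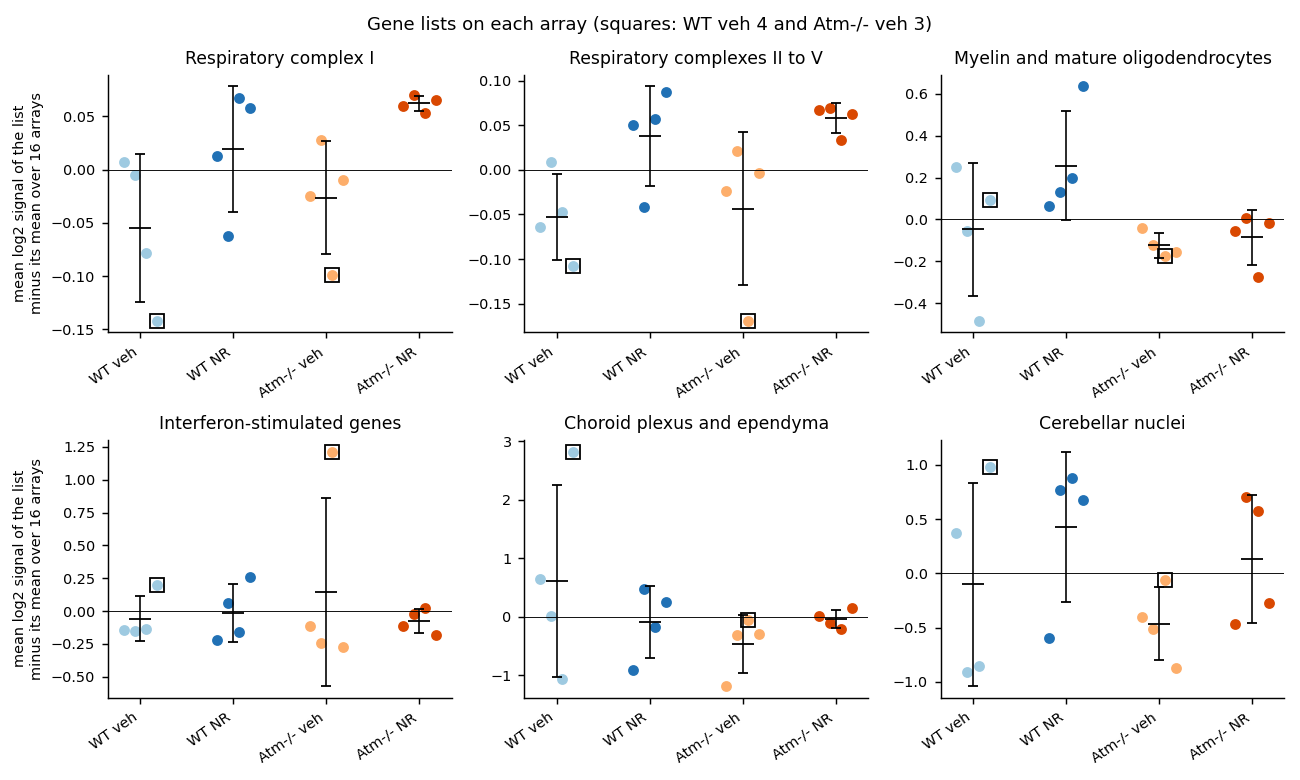
Mean standing (log2 from the mean of all arrays) of 6 gene lists on each of the 16 arrays, by group, with points for arrays and squares for WT veh 4 and Atm-/- veh 3. The respiratory lists lay higher on NR than on veh arrays in Atm-/- and overlapped in WT, the choroid plexus list was high on WT veh 4 (2.82) and the interferon list on Atm-/- veh 3 (1.22).

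Of the genes that the study discusses for these arrays, Pign, which acts in glycosylphosphatidylinositol anchor synthesis, had effects of 0.22 in WT and -0.89 in Atm-/- and an interaction of -1.11 (limma adjusted p = 0.839, unadjusted p = 0.0155). It was at 12.57, 12.35, 12.78 and 12.65 in WT veh, at 13.46, 12.39, 12.56 and 12.81 in WT NR and at 14.18, 12.67, 13.59 and 13.45 in Atm-/- veh. On Atm-/- NR 1, 2 and 3 it was at 12.56, 12.30 and 12.46, and Atm-/- NR 4 lay above Atm-/- veh 2. The groups overlapped in both genotypes, and its other probes gave interactions of 0.16 and 0.60. Pstpip2, a cytoskeletal adaptor of myeloid cells, had 0.88 in WT and 0.14 in Atm-/- (interaction -0.74, limma adjusted p = 0.839), and Hmmr had 0.10 and -0.61. The interactions of Lrrc49, Dzip1 and Spaca6 were -0.06, 0.07 and -0.19 and had no stable sign. Those of Cyp2t4, St14 and Cd209d were -0.49, -0.42 and -0.67, with intervals that held 0.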

How the data were processed

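Cerebellar cortex RNA of 16 mice was labelled with Cy3 and hybridised to 1-colour Agilent arrays. The deposited intensity values are background-subtracted processed signals written by Agilent Feature Extraction 12.0.3.1, per the file headers. The authors also deposited a score per spot, a log signal standardised within each array, which served only as an alternative.

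Control spots were left out, spots marked as outliers were dropped and the rest averaged per probe, and log2 signals were quantile normalized. To be kept, a probe needed a share of 0.5 or more of its spots above background on every array of some group. Probes were named through RefSeq accessions. limma 3.58.1 in R 4.3.3 fitted 4 group means over all 16 arrays, with Benjamini-Hochberg adjustment over 37253 probes and a threshold of 0.05. Exact permutation tests were two-sided, with 70 labelings within a genotype and 4900 for a difference between genotypes (smallest p = 0.000204). The interaction test was tested on simulated data.

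Named genes were the 12 smallest interaction p in each direction, the largest averaged changes in each direction, genes the study discusses and called list genes. Genes of smallest averaged p, and list genes with small interaction p, were picked with their values in view. The members and gene lists were chosen with earlier results of these data known. Alternatives changed the scaling, background correction, filter, probe summary, arrays and model. Counts of separated probes and the placing of arrays along the other genotype's response were added after the data were seen. Array number, 4 a group, limits the precision. The replicate numbers did not pair the mice: over 8 same-numbered pairs correlations ran from -0.148 to 0.161.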

Additional observations from a re-analysis of the deposited data

Results flagged for a closer look

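Of 464 groups of 4 arrays examined, 30 had an array far from the other 3, and chance alone gives about 1 in 20. Among genes these were Fam160a1 on Atm-/- NR 3 (9.343), Igf1r on WT veh 4 (10.55), Vmn2r112 (5.115), 1700091H14Rik (6.489), Ncoa4 (13.82) and Tfpt (11.24) on WT NR 1, 4933436H12Rik (9.02) and Pax7 (7.005) on WT NR 2, En1 on Atm-/- NR 2 (6.105), Cldn3 on Atm-/- veh 3 (5.921) and Spaca6 on WT veh 1 (9.047), all as log2 signals.

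Among gene lists, by mean standing in log2 from the mean of all arrays, Atm-/- veh 3 stood apart for interferon-stimulated genes (1.215), complement (0.5445), NAD-consuming enzymes (0.1658), antioxidant defence (0.2392) and collagens (0.2549). WT veh 4 stood apart for forebrain markers (1.261), sodium and calcium channels (0.4431), glutamate receptors (0.2718) and interferon-stimulated genes (0.2001). WT NR 1 stood apart for cerebellar nuclei (-0.5973), microglia (-0.2274), endothelium (-0.0814) and olfactory receptors (0.4675). The others were olfactory receptors on Atm-/- NR 4 (0.4042), cytosolic ribosome on Atm-/- veh 4 (-0.06329), DNA damage genes (0.02036) and erythrocyte genes (0.3722) on WT NR 3, cell cycle genes on WT veh 3 (0.03956) and inhibitory interneurons on WT veh 1 (0.1985).

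The spike-in spots, which carry RNA added in the laboratory, were brighter on NR arrays by 0.4085 in WT and by 0.5175 in Atm-/- (log2, exact permutation p = 0.0286 in each). The difference between the genotypes was within the spread (exact permutation p = 0.709). The part of this shift in the NR effects was not tested.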

How the results depend on the processing

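The interaction count was 0 with scaling to the 75th percentile, normexp, the deposited z-scores, no filter and the stricter filter. Leaving out 1 array gave 0 to 2 for the interaction, 845 to 4469 in Atm-/-, 0 to 6 in WT and 2255 to 4672 for the average. Arrays with Y-linked signal alone gave 5, 364, 32 and 2131. The methods' t-test, unadjusted, gave 2273, 10019, 2476 and 10161. Array weights gave 6799 in Atm-/- and 7148 for the average, and the count of probes well above background as a covariate gave 0 and 0. The replicate numbers did not pair the mice (1 of 8 correlations over 0.1), and a replicate block gave 0, 3140, 0 and 3601. Probes separated in both genotypes numbered 1552 alike and 25 opposite without WT veh 4 and Atm-/- veh 3, 3465 and 65 on arrays with Y-linked signal, and 4 opposite with scaling to the 75th percentile. The genotype difference in probes well above background lay between -4637 and -2958 without 1 array (exact permutation p = 0.0302 without WT veh 3). The cause was not tested in any of these.

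Of 951 alternatives for 33 interactions, 14 turned the sign, all of genes near 0. Without 1 array Lrrc49 lay between -0.2053 and 0.139, Dzip1 between -0.02751 and 0.1583 and Spaca6 between -0.3728 and 0.01077. With the covariate they were 0.3639, -0.009149 and 0.02751. Lrrc49 was 0.0835 with array weights and 0.2783 without WT veh 4 and Atm-/- veh 3, where Spaca6 was 0.03169, and Dzip1 was -0.2346 on arrays with Y-linked signal. Of 6514 alternatives for 225 averaged effects, 1508 lost the call and 4 turned the sign, which the mean over all probes did for Psmd1 (-0.004553), Apex1 (0.02894), Acsl1 (-0.06124) and Atp6v0a1 (0.1194). Of 224 called genes, 121 kept the call without each single array and all 224 lost it with the covariate.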
